A study of Mus musculus with 6 samples.

Results

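In immortalized bone marrow-derived macrophages (BMMs), 57 of 47729 counted genes behaved as switches between the genotypes. A gene was taken as a switch when it reached at least 3 CPM (reads of a gene per 1000000 reads assigned to genes in the same library) in all 3 libraries of a genotype and stayed at or below 0.5 CPM in all 3 libraries of the other. Of the 57 genes, 18 were on in Aif1-/- BMMs and off in WT BMMs, and 39 were off in Aif1-/- BMMs and on in WT BMMs. The rule leaves out 12 named genes (Maoa, Ifi44, Cspg4, Vill, Col18a1, Igsf9b, Aldh1l1, Tnfsf8, Pir, Pla2g5, Acot11 and Mfng), of which 9 met the same bounds. Of the 12627 genes with at least 3 CPM in every library of either genotype, which could have met the rule, 0.143% were on and 0.309% were off in Aif1-/- BMMs. These shares are set by the rule, so the values of the 57 genes are a description, and no test was run on them.

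The cells were macrophage lines grown from femoral and tibial marrow of 8-week-old male Aif1-/- and WT mice of the C57BL/6J strain, to which the mutant had been backcrossed. Lines of both genotypes carried SV40 large T antigen, were kept in medium with CSF-1 and were at passages 3 to 5, with no other treatment. RNA came from 3 Aif1-/- and 3 WT libraries, described in the study as biologically independent animals. The sources used here do not say whether every library stands for a line immortalized on its own, so a feature of a particular line and an effect of the genotype cannot be told apart.

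Mature cells keep many genes of other lineages silent, and a gene that is silent in a culture of a given genotype and transcribed in the other therefore changes by presence rather than by degree. Germ cell genes are a textbook case, since methylation of CpG sites at their promoters holds many of them silent in somatic cells. Macrophages are recognised by the CSF-1 receptor and by Aif1 itself, which encodes a calcium-binding, actin-bundling protein. In RNA from a whole culture, fewer cells of a type and less RNA per cell cannot be told apart.

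Libraries held 17707986 to 29314253 gene counts, and 3 counts, the limit taken for a count of 0, corresponded to 0.102 to 0.169 CPM. Intervals and limits cover counting error only. The 3 Aif1-/- libraries were alike in the share of reads outside genes, 33.6% to 35.7%, while the WT libraries ran from 25.5% to 40.4%. In edgeR's quasi-likelihood test, 8 of 12 macrophage markers were higher and 1 was lower in Aif1-/- BMMs, where 8.04% of all tested genes were higher and 10.5% lower. The markers had a summed level of 6901 to 6996 CPM in Aif1-/- libraries and 5295 to 5733 CPM in WT libraries, and the part of this shift in the switched genes was not tested. Csf1r, Adgre1 and Cd68 were abundant in all 6 libraries, as the labelled cell type requires.

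Aif1, the targeted gene at chr17:35170991-35176068, was among the genes off in Aif1-/- BMMs. It measured 0.151, 0.226 and 0.0562 CPM in Aif1-/- libraries, against 9.46, 5.89 and 8.15 CPM in WT libraries. Its summed rate was 53.6-fold lower in Aif1-/- BMMs. The genotypes did not overlap, which the rule requires of every switched gene, so this is no separate check of the labels. Here and for the other genes, the fold compares reads summed over the 3 libraries, divided by the summed gene totals. Aif1l, the paralogue of Aif1, had at most 3 reads in any of the 6 libraries.

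Rnf17 was the highest of the genes on in Aif1-/- BMMs. Rnf17 encodes a RING finger and Tudor domain protein of male germ cells, where it takes part in control of the piRNA pathway and in sperm development. The gene lies at chr14:56402581-56525032 on the plus strand. Rnf17 measured 26.4, 27.7 and 24.5 CPM in Aif1-/- libraries, against 0.0430, 0.225 and 0.341 CPM in WT libraries. These were 700, 490 and 435 reads in Aif1-/- libraries, against 1, 6 and 10 reads in WT libraries. The Aif1-/- level was steady, at 26.2 ± 1.62 CPM (SD, n = 3), and 122-fold above that of WT BMMs, whose reads were few but present in all 3 libraries.

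Dennd2a encodes a DENN domain protein, an exchange factor that activates the small GTPase Rab9 in transport between endosomes and the Golgi. It lies at chr6:39462378-39557867 on the minus strand. Dennd2a measured 10.9, 9.15 and 8.43 CPM in Aif1-/- libraries, against 0.172, 0.0751 and 0 CPM in WT libraries, a 128-fold difference. A noncoding gene, 8030453O22Rik, lies wholly inside Dennd2a on the opposite strand, at chr6:39527513-39544486. It measured 9.44, 9.66 and 7.76 CPM in Aif1-/- libraries, against 0.258, 0.338 and 0.102 CPM in WT libraries. Both genes of this locus were thus on in all Aif1-/- libraries and off in all WT libraries. The library kit keeps the strand of the RNA, and counting is stated to have used HTSeq's default parameters, which assign reads by strand. In these counts, however, unclassified transcripts (class TEC) inside a protein coding gene of at least 100 CPM had a median of 2.73 CPM on the strand opposite to that gene (49 transcripts) and 3.94 CPM on its own strand (262 transcripts). Processed pseudogenes had medians of 1.17 CPM (164) and 1.67 CPM (70) in the same order, and small RNAs 0.233 CPM (88) and 0.319 CPM (71). Opposite-strand transcripts thus still held counts, at lower medians than same-strand ones. The sets were not matched, and reads of overlapping pairs on opposite strands may be shared.

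The 300-base promoter windows of 4 switched genes are given here, for Dennd2a and for the 3 genes with no read at all in the genotype that is off. Each window runs 5′ to 3′ from 250 bases before to 50 bases after the RefSeq start (GRCm38.p6), and capitals mark CpG sites, the bases that methylation acts on. The table used here has no Rnf17 window. The windows lie at chr6:39557785-39558084 on the minus strand (Dennd2a), chrX:73214083-73214382 on the plus strand (Xlr4b), chr6:25931176-25931475 on the plus strand (Gm20756) and chr14:118925421-118925720 on the minus strand (Dzip1).
Dennd2a: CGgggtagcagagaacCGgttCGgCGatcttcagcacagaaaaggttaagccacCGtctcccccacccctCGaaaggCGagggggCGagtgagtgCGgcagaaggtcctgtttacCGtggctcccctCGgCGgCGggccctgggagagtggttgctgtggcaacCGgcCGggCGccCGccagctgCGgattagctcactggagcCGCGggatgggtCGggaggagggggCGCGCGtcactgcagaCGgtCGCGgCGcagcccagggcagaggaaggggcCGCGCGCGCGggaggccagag
Xlr4b: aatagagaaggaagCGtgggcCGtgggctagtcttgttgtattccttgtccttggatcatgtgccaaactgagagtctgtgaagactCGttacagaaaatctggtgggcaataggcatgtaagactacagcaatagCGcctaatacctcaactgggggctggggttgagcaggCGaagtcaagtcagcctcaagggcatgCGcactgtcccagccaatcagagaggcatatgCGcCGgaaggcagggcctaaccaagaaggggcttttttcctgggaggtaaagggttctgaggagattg
Gm20756: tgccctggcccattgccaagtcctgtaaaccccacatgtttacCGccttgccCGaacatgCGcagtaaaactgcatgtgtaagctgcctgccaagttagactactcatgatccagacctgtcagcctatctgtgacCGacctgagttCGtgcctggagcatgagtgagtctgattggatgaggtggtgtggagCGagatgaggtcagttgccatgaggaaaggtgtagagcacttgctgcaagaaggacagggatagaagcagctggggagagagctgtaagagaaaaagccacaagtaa
Dzip1: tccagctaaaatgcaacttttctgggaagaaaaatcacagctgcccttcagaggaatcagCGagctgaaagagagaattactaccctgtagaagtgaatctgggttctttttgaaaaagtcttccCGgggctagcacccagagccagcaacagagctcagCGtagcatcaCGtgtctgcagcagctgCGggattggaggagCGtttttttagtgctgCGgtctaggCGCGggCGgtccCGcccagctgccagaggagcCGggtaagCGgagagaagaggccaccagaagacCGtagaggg

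The Dennd2a window held 33 CpG sites and was 70.7% G and C. The Dzip1 window held 14 CpG sites, the Xlr4b window 8 and the Gm20756 window 6, around a median of 12 over 19397 RefSeq mouse promoters of the same length. Genes able to meet the rule had a higher median, 21 over the 8496 that had a window. The printed windows of genes on in Aif1-/- BMMs thus ranged from rich to poor in CpG. RefSeq windows matched 14 of the 18 genes on and 21 of the 39 genes off in Aif1-/- BMMs. Since fewer than 80% of either set had a window, a comparison of base composition or motifs between the sets was void and is not given. Of 6 motifs searched on both strands, the TATA box (TATAAA), the AP-1 site (TGANTCA), the cAMP response element (TGACGTCA), the E-box (CACGTG), the PU.1 site (GAGGAAGT) and the interferon-stimulated response element, the printed windows held only the E-box, in Dzip1. The E-box is in 7.79% of the 19397 promoters.

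**Figure D1:**
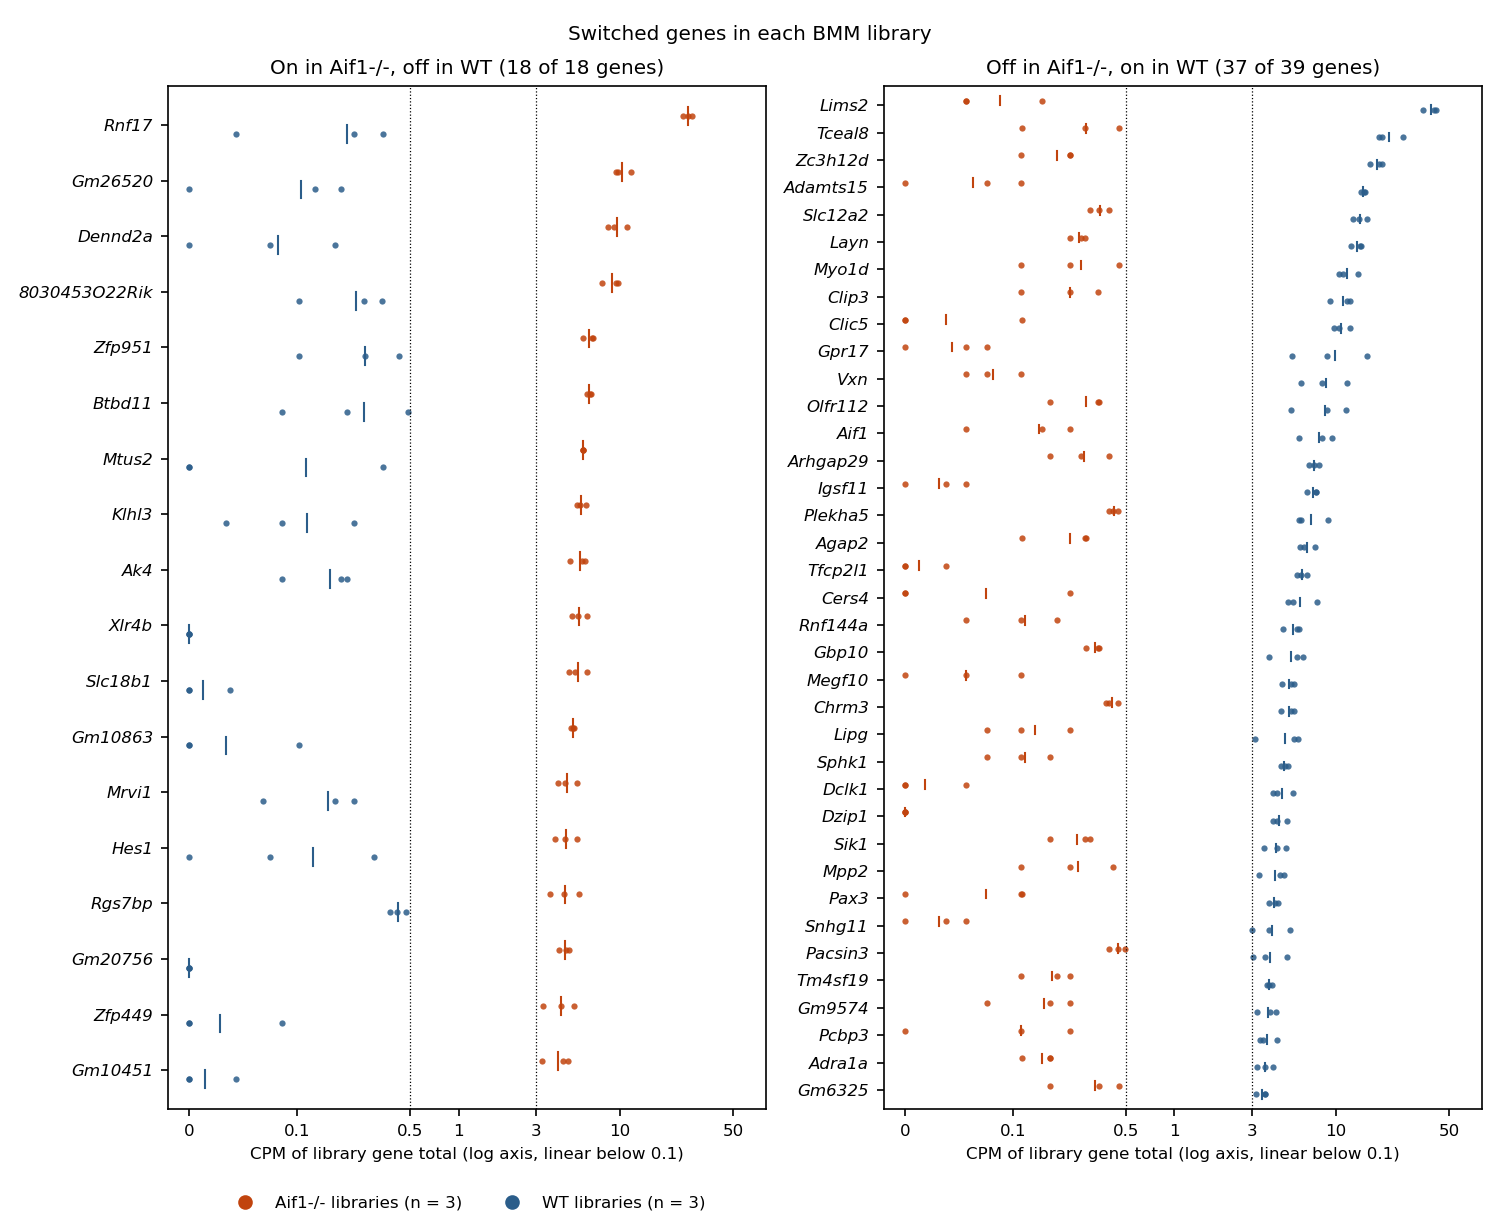
CPM of 55 of the 57 switched genes in every library, on a log axis that is linear below 0.1 CPM. Orange points are the 3 Aif1-/- libraries and blue points the 3 WT libraries of each gene, short bars are their means, and dotted lines mark 0.5 and 3 CPM. Rnf17 leads the 18 genes on in Aif1-/- BMMs and Lims2 the 37 plotted genes off in them, and no gene has a library between the bounds, as the rule requires.

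The 18 genes on in Aif1-/- BMMs summed to 124 to 132 CPM in Aif1-/- libraries and to 1.88 to 2.74 CPM in WT libraries. Their summed counts were 7967 reads in Aif1-/- BMMs and 183 reads in WT BMMs. Fold sizes ran from 10.7 for Rgs7bp to 424 for Slc18b1, around a median of 76.7, with genes at 0 in WT set at the limit of 3 reads over the group. In 2 of the 18 genes, no WT library held a read, and in 8 all 3 did. Across the Aif1-/- libraries, these genes had a median coefficient of variation of 11.2% and a highest value of 21.9%, for Zfp449. The rule itself asks for at least 3 CPM in all 3 libraries, and other genes of like level were not compared.

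Among regulators of transcription, Hes1, a repressor induced by Notch signalling, measured 4.57, 5.42 and 3.94 CPM in Aif1-/- libraries, against 0.301, 0.0751 and 0 CPM in WT libraries. Zfp951, a zinc finger gene, measured 6.80, 6.72 and 5.85 CPM in Aif1-/- libraries, against 0.430, 0.263 and 0.102 CPM in WT libraries. Zfp449, another zinc finger gene, had 274 reads in Aif1-/- BMMs and 2 in WT BMMs. For Zfp449 the log2 ratio was 7.45, with a 95% counting interval of 5.59 to 10.50. Hes1 was 40.8-fold and Zfp951 25.8-fold higher in Aif1-/- BMMs.

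Xlr4b belongs to a cluster of X-linked lymphocyte-regulated genes and is known in mouse brain as an imprinted gene. Xlr4b measured 5.51, 6.21 and 5.00 CPM in Aif1-/- libraries, and none of the 3 WT libraries held a read. Against the limit of 3 reads, its level was at least 147-fold higher in Aif1-/- BMMs. Near-identical copies of this gene exist, and with at most 1 location kept per read, reads may have moved among them.

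Slc18b1, a vesicular polyamine transporter, measured 4.83, 6.27 and 5.23 CPM in Aif1-/- libraries, against 0, 0.0375 and 0 CPM in WT libraries. That was 332 reads in Aif1-/- BMMs and 1 read in WT BMMs, a log2 ratio of 8.73 (95% counting interval 6.24 to 14.04). Rgs7bp, which anchors regulators of G protein signalling at the membrane, had the smallest difference, with 4.56 ± 0.956 CPM in Aif1-/- BMMs and 0.420 ± 0.0493 CPM in WT BMMs (SD, n = 3 each). Mrvi1, a target of cGMP kinase in the endoplasmic reticulum of smooth muscle, was 31.7-fold higher, and Klhl3, a substrate adaptor of cullin-3 ubiquitin ligases, 50.1-fold higher in Aif1-/- BMMs. Ak4, a mitochondrial adenylate kinase, was 34.3-fold higher. Mtus2, which encodes a microtubule-associated protein, was 46.5-fold higher, and all 10 of its WT reads came from a single library. Btbd11, named for its BTB domain, lay nearest the lower bound, at 6.49, 6.21 and 6.64 CPM in Aif1-/- libraries, against 0.0860, 0.488 and 0.205 CPM in WT libraries.

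Apart from 8030453O22Rik, 4 more of the genes on in Aif1-/- BMMs were long noncoding. Gm26520, at chr12:3343816-3357153, measured 11.6, 9.37 and 9.73 CPM in Aif1-/- libraries, against 0.129, 0.188 and 0 CPM in WT libraries. Per kilobase of exon it was the highest of the 18, at 7.20 CPM per kb, above Rnf17 at 4.20 CPM per kb. Gm10863 measured 5.21, 4.97 and 5.12 CPM in Aif1-/- libraries, against 0, 0 and 0.102 CPM in WT libraries, a log2 ratio of 7.08 (95% counting interval 5.52 to 9.36). Gm10451 measured 4.42, 3.28 and 4.72 CPM in Aif1-/- libraries, against 0.0430, 0 and 0 CPM in WT libraries, a log2 ratio of 8.37 (95% counting interval 5.88 to 13.68). Gm20756 measured 4.15, 4.63 and 4.84 CPM in Aif1-/- libraries and held no WT read, so that its level was at least 118-fold higher. None of these 4 genes had more than 5 reads in any WT library.

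The 39 genes off in Aif1-/- BMMs summed to 6.68 to 6.78 CPM in Aif1-/- libraries and to 316 to 338 CPM in WT libraries. Their summed counts were 417 reads in Aif1-/- BMMs and 25896 reads in WT BMMs. Fold sizes ran from 8.69 for Pacsin3 to 400 for Lims2, around a median of 48.1. Aif1-/- libraries held no read in any of the 3 replicates for 1 gene, Dzip1, and held reads in all 3 for 26 genes.

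Lims2 was the highest of the genes off in Aif1-/- BMMs, also per kilobase of exon. Lims2 encodes PINCH2, an adaptor of integrin-linked kinase at sites of cell adhesion. It measured 0.151, 0.0565 and 0.0562 CPM in Aif1-/- libraries, against 41.6, 34.5 and 40.2 CPM in WT libraries. Gpr17, an orphan G protein-coupled receptor known from oligodendrocyte precursors, lies inside Lims2 on the opposite strand, at chr18:31942997-31949636. Gpr17 measured 0.0755, 0 and 0.0562 CPM in Aif1-/- libraries, against 8.77, 15.5 and 5.36 CPM in WT libraries, a log2 ratio of −7.66 (95% counting interval −9.94 to −6.10). In WT BMMs the pair did not follow each other, since Gpr17 was highest and Lims2 lowest in WT replicate 2. Of 9 markers of oligodendrocyte precursors, Gpr17 is a switch, and Cspg4, left out by the rule, measured 0.491, 0.169 and 0.0562 CPM in Aif1-/- libraries, against 211, 200.4 and 233 CPM in WT libraries. Without Gpr17, the list summed to 0.337 to 0.680 CPM in Aif1-/- libraries and 202 to 235 CPM in WT libraries. The other 7 markers summed to 0.189 to 0.281 CPM in Aif1-/- libraries and 0.946 to 1.71 CPM in WT libraries, with Pcdh15, Neu4 and Lhfpl3 at 0 reads in all 6 libraries, Pdgfra at 1 read in all and Olig1 the single marker above 0.5 CPM in any library.

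Other receptors and surface proteins were off in the same way. Layn, a hyaluronan receptor, measured 0.264, 0.226 and 0.281 CPM in Aif1-/- libraries, against 14.1, 14.2 and 12.4 CPM in WT libraries. Megf10, a receptor for the engulfment of dying cells and a gene of muscle satellite cells, measured 0, 0.0565 and 0.112 CPM in Aif1-/- libraries, against 5.50, 4.62 and 5.29 CPM in WT libraries. Tm4sf19, a tetraspan membrane protein, measured 0.189, 0.113 and 0.225 CPM in Aif1-/- libraries, against 3.87, 4.02 and 3.72 CPM in WT libraries. The WT libraries were close to each other for these 3 genes. Igsf11, an immunoglobulin superfamily adhesion protein, had 2 reads in Aif1-/- BMMs and 568 in WT BMMs, a log2 ratio of −7.80 (95% counting interval −10.85 to −5.94). Chrm3, the M3 muscarinic acetylcholine receptor, was 12.8-fold lower and Adra1a, the alpha-1A adrenergic receptor, 25.2-fold lower in Aif1-/- BMMs. All 6 other markers of skeletal muscle stayed below 0.5 CPM in every library.

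Of regulators of transcription, Pax3, a factor of neural crest and muscle precursors, measured 0.113, 0.113 and 0 CPM in Aif1-/- libraries, against 4.21, 4.39 and 3.85 CPM in WT libraries. Tfcp2l1, a factor of pluripotent cells and kidney, had 1 read in Aif1-/- BMMs and 489 in WT BMMs, a log2 ratio of −8.58 (95% counting interval −13.89 to −6.09). Of the other melanocyte and neural crest markers, 7 of 10 were below 0.5 CPM in every library, Dct and Foxd3 among them at 0 reads. Their summed level, 102 to 106 CPM in Aif1-/- libraries and 113 to 124 CPM in WT libraries, was mostly from Mitf, a factor that macrophages also express, which was not called (log2 fold change −0.14 ± 0.06, edgeR adjusted p = 0.165). Snai2, a neural crest factor, was lower, with 9.82, 8.75 and 8.55 CPM in Aif1-/- libraries, against 14.3, 15.4 and 13.9 CPM in WT libraries (log2 fold change −0.68 ± 0.11, edgeR adjusted p = 0.00185). The part of these cells' genes in the level of Pax3 was not tested.

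Enzymes of lipid metabolism were found among the genes off in Aif1-/- BMMs. Sphk1, a sphingosine kinase, averaged 0.119 ± 0.0473 CPM in Aif1-/- BMMs and 4.79 ± 0.228 CPM in WT BMMs (SD, n = 3 each). Cers4, a ceramide synthase, was 93.5-fold lower, and Lipg, endothelial lipase, 37.2-fold lower. The WT libraries differed for Lipg, which measured 3.15 CPM in WT replicate 2 and 5.81 and 5.49 CPM in WT replicates 1 and 3.

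Zc3h12d, an RNase of the Regnase family that limits inflammatory transcripts, measured 0.227, 0.113 and 0.225 CPM in Aif1-/- libraries, against 19.3, 16.1 and 18.3 CPM in WT libraries. Pcbp3, a poly(C)-binding protein of RNA, was 39.1-fold lower in Aif1-/- BMMs. Rnf144a, a ubiquitin ligase, averaged 0.119 ± 0.0664 CPM in Aif1-/- BMMs and 5.44 ± 0.661 CPM in WT BMMs (SD, n = 3 each). The kinase genes Sik1 and Dclk1 were also off, Dclk1 with 1 read in Aif1-/- BMMs and 360 in WT BMMs (log2 ratio −8.14, 95% counting interval −13.45 to −5.65). Adamts15, a metalloprotease of the extracellular matrix, averaged 0.0627 ± 0.0573 CPM in Aif1-/- BMMs and 14.7 ± 0.452 CPM in WT BMMs (SD, n = 3 each), among the steadiest WT levels of the set. Slc12a2, the sodium, potassium and chloride cotransporter NKCC1, measured 0.302, 0.339 and 0.394 CPM in Aif1-/- libraries, against 15.6, 13.8 and 12.7 CPM in WT libraries.

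Genes of the cytoskeleton, of membrane traffic and of small GTPases formed a further part. Clip3, which links microtubules to the Golgi and endosomes, measured 0.227, 0.113 and 0.337 CPM in Aif1-/- libraries, against 12.1, 11.7 and 9.11 CPM in WT libraries. Myo1d, a class I myosin, was 45.9-fold lower in Aif1-/- BMMs. The GTPase-activating proteins Agap2 and Arhgap29 were 31.2-fold and 26.7-fold lower, and Mpp2, a membrane scaffold, 15.2-fold lower. Plekha5, a pleckstrin homology domain protein, was 16.6-fold lower. Pacsin3, a membrane-bending protein of endocytosis, lay nearest the lower bound, at 0.491, 0.395 and 0.450 CPM in Aif1-/- libraries, against 3.05, 4.99 and 3.65 CPM in WT libraries. Dzip1, a protein of the ciliary base, had no read in Aif1-/- BMMs and 4.30, 4.09 and 4.95 CPM in WT libraries, at least 92.3-fold lower in Aif1-/- BMMs.

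Of the genes with less settled roles, Tceal8, a gene of the TCEA-like family on the X chromosome, measured 0.113, 0.452 and 0.281 CPM in Aif1-/- libraries, against 25.8, 18.5 and 19.3 CPM in WT libraries. Per kilobase of exon it ranked next to Lims2 in WT BMMs, at 8.29 CPM per kb, against 12.7 CPM per kb for Lims2. Vxn, known in frog embryos for a role in neurogenesis, measured 0.0755, 0.0565 and 0.112 CPM in Aif1-/- libraries, against 8.13, 11.6 and 6.07 CPM in WT libraries. Snhg11, a host gene of small nucleolar RNAs, lay nearest the upper bound, at 0.0378, 0 and 0.0562 CPM in Aif1-/- libraries, against 3.83, 5.22 and 3.00 CPM in WT libraries. The pseudogene Gm6325 was 10.2-fold lower in Aif1-/- BMMs.

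For 6 of the 39 genes off in Aif1-/- BMMs, WT replicate 2 was more than 1.5 times WT replicate 3, and for 2 genes, Lipg among them, WT replicate 3 was more than 1.5 times WT replicate 2. The 6 genes were Gpr17, Olfr112, Vxn, Snhg11, Gbp10 and Plekha5. Among all 12142 genes at or above 3 CPM in every WT library, 1036 and 306 did so. The share of reads outside genes was highest in WT replicate 2, at 40.4%, and lowest in WT replicate 3, at 25.5%, and its part in these spreads was not tested.

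Just outside the bounds on the side on in Aif1-/- BMMs, Xlr3b had 2.64 CPM in its lowest Aif1-/- library, against 3.28 CPM for Gm10451 just inside. Selenbp1, a selenium-binding protein, reached 0.512 CPM in its highest WT library, against 0.488 CPM for Btbd11 just inside. On the side off in Aif1-/- BMMs, Alox8, a lipoxygenase, fell to 2.87 CPM in its lowest WT library, against 3.00 CPM for Snhg11 just inside. Apbb1, an adaptor of the amyloid precursor protein, reached 0.508 CPM in its highest Aif1-/- library, against 0.491 CPM for Pacsin3 just inside. A further 13 genes on and 28 genes off missed the lower bound with a highest value between 0.5 and 1 CPM, so the bounds cut through a continuous range of levels.

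The gene classes of the directions differed in count. Of the 18 genes on in Aif1-/- BMMs, 13 were protein coding and 5 long noncoding, 27.8% of the set, by the GENCODE M21 annotation. Of the 39 genes off in Aif1-/- BMMs, 37 were protein coding, 2 were unprocessed pseudogenes (Gm9574 and Gm6325) and none was long noncoding. Snhg11, the host gene of small nucleolar RNAs, is among the 37 by that annotation. Among the 12627 genes able to meet the rule, 82.3% were protein coding, 5.60% long noncoding and 11.3% pseudogenes. The annotated gene span had a median of 47.3 kb for the genes on, 31.5 kb for the genes off and 18.3 kb for the genes able to meet the rule, and the exon length a median of 4.19, 5.13 and 4.03 kb. A gene on the other strand overlapped 6 of the 18 genes on (33.3%) and 15 of the 39 genes off (38.5%), against 41.9% of the genes able to meet the rule. Mean CPM in the higher genotype had a median of 5.59 for the genes on, 6.01 for the genes off and 33.8 for the genes able to meet the rule. Gene class and span were not compared at equal levels. These shares describe sets chosen on the same libraries, and no test was made of them.

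The genes on in Aif1-/- BMMs lay on 11 chromosomes, with no more than 3 on any. Chromosome 6 held 3 of them (Gm20756, Dennd2a and 8030453O22Rik), of which the last pair is a single locus. The genes off in Aif1-/- BMMs lay on 18 chromosomes. Chromosome 17, which carries Aif1, held 5 (Sik1, Aif1, Gm9574, Olfr112 and Clic5), and chromosome 18 held 5 (Lims2, Gpr17, Megf10, Slc12a2 and Lipg). Each came to 12.8% of the 39 genes, against 4.70% of the genes able to meet the rule on chromosome 17 and 2.30% on chromosome 18. The chromosome 17 genes include Aif1, the targeted gene itself, and Lims2 and Gpr17 on chromosome 18 are a single locus. No gene on in Aif1-/- BMMs lay on chromosome 17 or 18, and no gene of either direction on chromosome 19, on Y or in the mitochondrial genome.

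**Figure D2:**
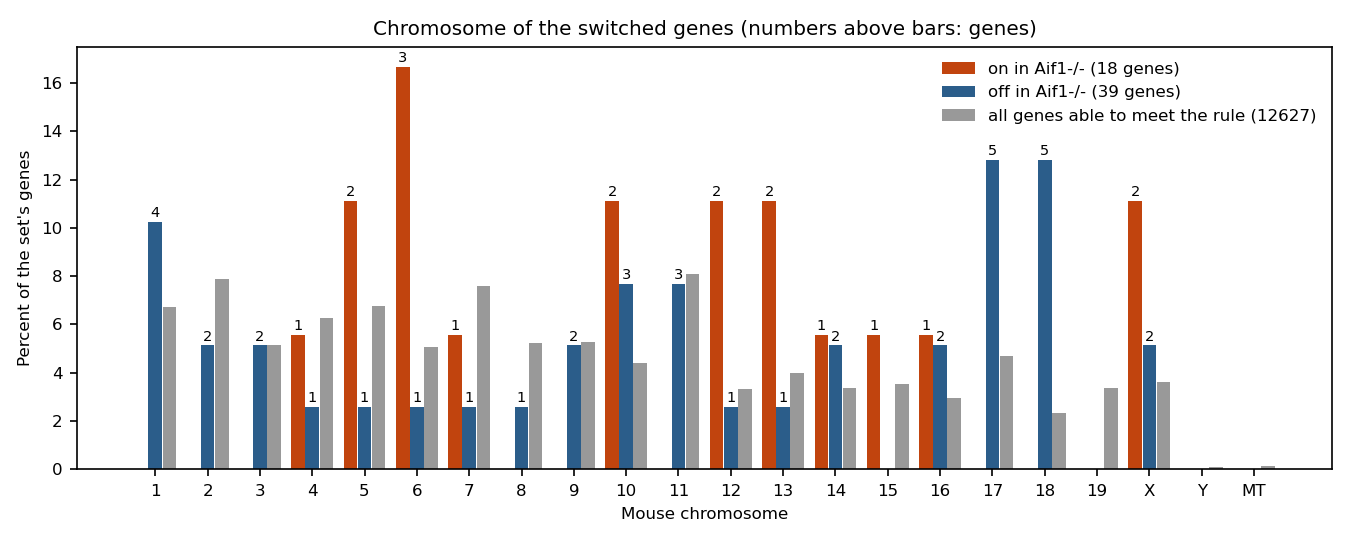
Percent of genes on every mouse chromosome, for the 18 genes on in Aif1-/- BMMs (orange), the 39 genes off in Aif1-/- BMMs (blue) and the 12627 genes able to meet the rule (grey), with gene numbers above the bars. Chromosomes 17 and 18 each carry 5 genes off in Aif1-/- BMMs (12.8%), and chromosome 6 carries 3 genes on in them.

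Apart from Aif1, 4 of the genes off in Aif1-/- BMMs lay within 10 Mb of it, 10.3% of the 39, as did 1.91% of the genes able to meet the rule. Gm9574, an unprocessed pseudogene in the major histocompatibility region 0.961 Mb from Aif1, measured 0.0755, 0.226 and 0.169 CPM in Aif1-/- libraries, against 3.91, 4.24 and 3.24 CPM in WT libraries. Olfr112, an olfactory receptor gene 2.39 Mb away, measured 0.340, 0.169 and 0.337 CPM in Aif1-/- libraries, against 8.73, 11.6 and 5.29 CPM in WT libraries. Sik1, a salt-inducible kinase 3.32 Mb away on the other side, measured 0.302, 0.169 and 0.281 CPM in Aif1-/- libraries, against 3.57, 4.28 and 4.91 CPM in WT libraries. Clic5, a chloride intracellular channel protein that binds the actin cortex, lay 9.01 Mb away and had 3 reads in Aif1-/- BMMs and 845 in WT BMMs, at 0.113, 0 and 0 CPM in Aif1-/- libraries and 12.1, 9.72 and 10.4 CPM in WT libraries. For Clic5 the log2 ratio was −7.78 (95% counting interval −10.06 to −6.23). Of 323 tested genes in this window that are not switches, 29 were higher and 65 lower in Aif1-/- BMMs, 8.98% and 20.1%, where 8.04% of all tested genes were higher and 10.5% lower.

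Besides the overlapping pairs on chromosomes 6 and 18, few switched genes were close together. Megf10 and Slc12a2 lay 581 kb apart on chromosome 18, both off in Aif1-/- BMMs. Zfp951, on in Aif1-/- BMMs, lay 356 kb from Gbp10, off in Aif1-/- BMMs, on chromosome 5, so that opposite directions occurred in a single region. Among the genes the rule leaves out, Mfng lay 393 kb from Gm10863 with the same direction.

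Neighbours of the switched genes were not used by the rule, and their calls were read from edgeR's quasi-likelihood test over all 17406 genes that passed the filter on low counts, taking p-values adjusted by Benjamini and Hochberg's method under 0.05 as calls. Over all tested genes, 18.6% were called, 8.04% higher and 10.5% lower in Aif1-/- BMMs. Of 140 tested genes within 100 kb of a gene off in Aif1-/- BMMs, 40 (28.6%) were lower and 5 (3.57%) higher. Of 53 tested genes within 100 kb of a gene on in Aif1-/- BMMs, 9 (17%) were higher and 5 (9.43%) lower. In both sets, the share called in the direction of the switched gene was above the share over all tested genes, a description that was not tested as a set. Outside chromosome 17, 24 of 101 neighbours of the genes off (23.8%) were lower and 3 higher. Without the relatives of the switched genes as well, 20 of 94 (21.3%) were lower. Around the genes on, 3 of the 9 higher neighbours were Xlr genes, and without relatives 6 of 50 (12%) were higher.

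**Figure D3:**
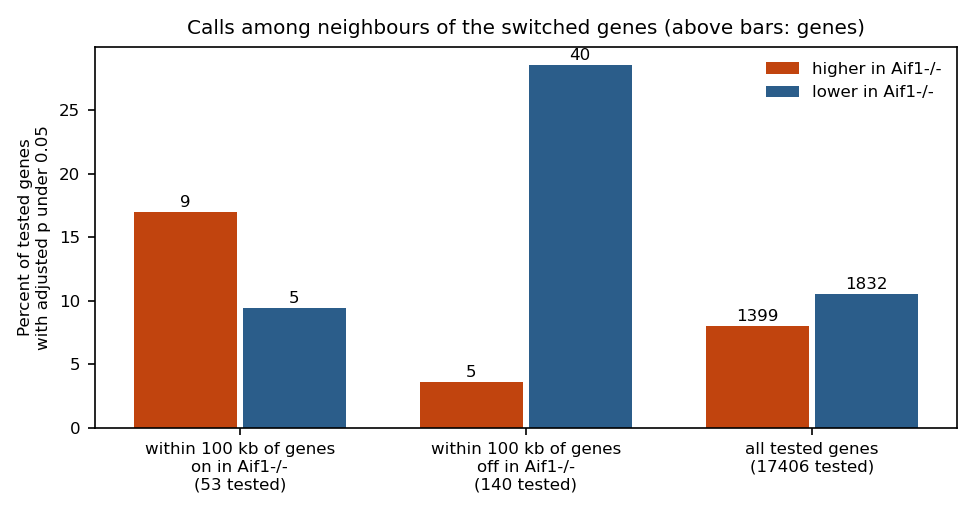
Percent of tested genes with an adjusted p under 0.05 in edgeR's quasi-likelihood test that were higher (orange) or lower (blue) in Aif1-/- BMMs, among neighbours within 100 kb of the genes on, neighbours of the genes off, and all 17406 tested genes, with gene numbers above the bars. Neighbours of the genes off were lower in 28.6% of cases, against 10.5% of all tested genes, and neighbours of the genes on were higher in 17%, against 8.04%.

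In numbers of switched genes, 32 of the 39 genes off had a tested neighbour. At least 1 neighbour was lower for 15 of them and higher for 5, and 13 had no called neighbour. For 16 of the 18 genes on, a neighbour was tested. At least 1 was higher for 6 of them and lower for 4, and 7 had no called neighbour. Such counts grow with the number of neighbours tested. The same count was not made around other genes, so no background stands beside them. Gm9574 (9 of 18 neighbours lower), Agap2 (6 of 12), Olfr112 (5 of 5) and Gbp10 (4 of 6) held most of the lower neighbours. Dennd2a had 7 tested neighbours, of which 1 was lower and none higher.

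Single libraries moved the calls. With all 6 libraries 3231 genes were called. Leaving out Aif1-/- replicate 1, 2 or 3 gave 2040, 2113 or 2140 calls, and leaving out WT replicate 3 gave 4889 calls. Of the 140 neighbours of the genes off, 28, 29, 30 and 43 were then lower, where 6.56%, 6.73%, 6.83% and 14.0% of all tested genes were lower.

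Around Xlr4b, all 4 other Xlr genes that were tested were higher in Aif1-/- BMMs, where 8.04% of all tested genes were higher. Xlr3b had 92, 62 and 47 reads in Aif1-/- libraries and none in WT libraries, at least 85.6-fold higher (edgeR adjusted p = 2.68e-05). Xlr4a, with 31, 28 and 24 reads in Aif1-/- libraries, and Xlr3c, with 23, 22 and 20, also had none in WT libraries, at least 35.4-fold and 27.7-fold higher. Xlr4c had 40, 28 and 27 reads in Aif1-/- libraries, against 0, 2 and 2 reads in WT libraries, with a fitted log2 fold change of 4.79 ± 0.56 (SE, edgeR adjusted p = 0.000164). Xlr3a, too low for the test, had 7, 11 and 20 reads in Aif1-/- libraries and none in WT libraries, and Xlr5a, Xlr5b and Xlr5c had no read in any library. The whole detected cluster was thus silent or nearly so in WT libraries and present in all 3 Aif1-/- libraries, with the caution on near-identical copies given above.

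Gbp10 is a guanylate-binding protein gene, of a family of interferon-induced GTPases that act against intracellular microbes. Gbp10 measured 0.340, 0.282 and 0.337 CPM in Aif1-/- libraries, against 6.24, 5.74 and 3.82 CPM in WT libraries, and it lies inside Gm43302 on the same strand. Reads that fall on both genes may have been left out as ambiguous, so both levels are uncertain. Of 8 other Gbp genes tested, 7 were lower in Aif1-/- BMMs and none higher, where 10.5% of all tested genes were lower and 8.04% higher. Gbp6, 31.2 kb away, averaged 0.677 ± 0.111 CPM in Aif1-/- BMMs and 15.2 ± 2.61 CPM in WT BMMs (SD, n = 3 each), and the fitted log2 fold change was −4.48 ± 0.20 (SE, edgeR adjusted p = 1.97e-07). On chromosome 3, Gbp7 changed by −2.90 ± 0.10, Gbp3 by −2.30 ± 0.10 and Gbp2 by −1.49 ± 0.08 on the log2 scale, with edgeR adjusted p-values of 3.97e-08, 1.83e-07 and 8.09e-07. Gbp8 did not pass the test, at −0.11 ± 0.14 (edgeR adjusted p = 0.688). Gbp6, at 22.2-fold lower, differed by more than Gbp10, at 16-fold lower, and missed the rule through its Aif1-/- libraries, at 0.680, 0.565 and 0.787 CPM.

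All 5 tested neighbours of Olfr112 were lower in Aif1-/- BMMs, where 10.5% of all tested genes were lower. Olfr111 averaged 3.18 ± 0.111 CPM in Aif1-/- BMMs and 19 ± 5.62 CPM in WT BMMs (SD, n = 3 each), and the fitted log2 fold change was −2.57 ± 0.21 (SE, edgeR adjusted p = 1.17e-05). Olfr113 had 3, 0 and 0 reads in Aif1-/- libraries and 64, 114 and 26 reads in WT libraries, and Olfr114 had 1, 2 and 0 reads in Aif1-/- libraries and 61, 100 and 16 reads in WT libraries. Olfr110 and H2-M2, a class Ib histocompatibility gene, were also lower, with log2 fold changes of −1.21 ± 0.24 and −2.87 ± 0.40. Olfr112 and its 4 Olfr neighbours were all highest in WT replicate 2 and lowest in WT replicate 3.

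**Figure D4:**
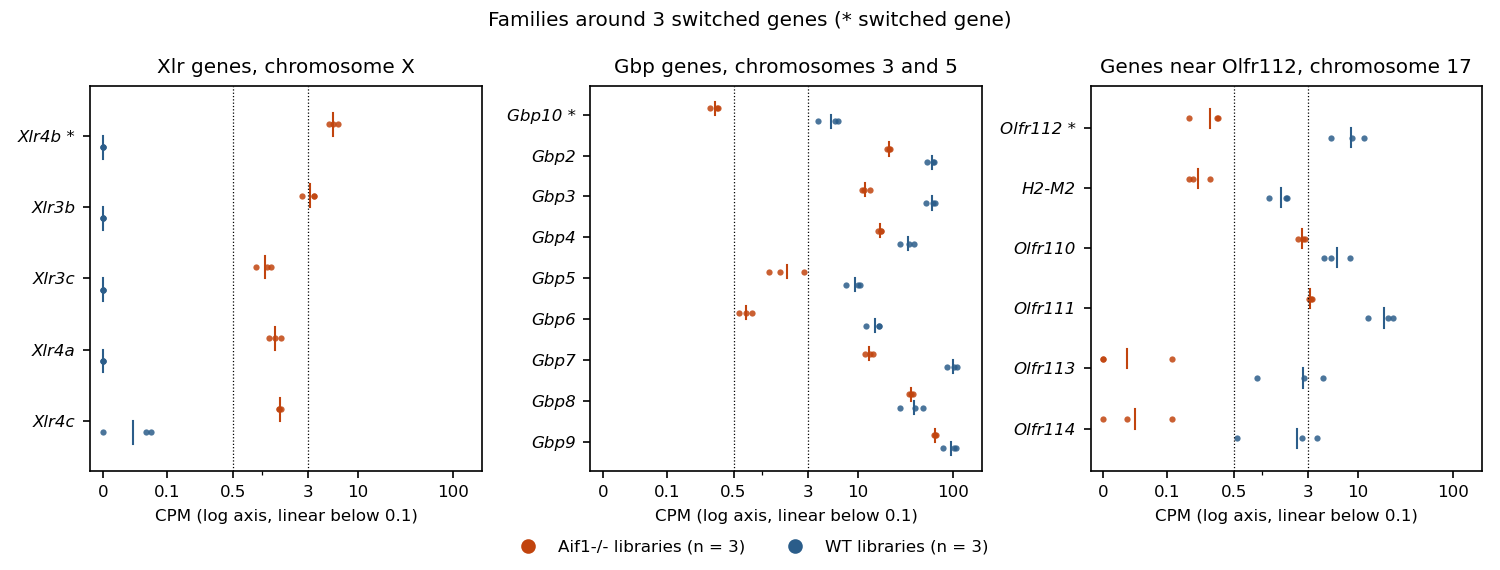
CPM in every library of the tested Xlr genes, the tested Gbp genes and the genes near Olfr112, on log axes that are linear below 0.1 CPM, with Aif1-/- libraries in orange, WT libraries in blue and short bars for means. Switched genes carry an asterisk, and dotted lines mark 0.5 and 3 CPM. The Xlr genes sit at or near 0 in WT libraries, 7 of the 8 Gbp genes beside Gbp10 are lower in Aif1-/- libraries, and so are all 5 genes near Olfr112.

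Rnf144a lies beside a pair of antiviral interferon-induced genes. Rsad2, which encodes viperin and lies 27.5 kb away, averaged 108 ± 7.42 CPM in Aif1-/- BMMs and 309 ± 13.2 CPM in WT BMMs (SD, n = 3 each), and changed by −1.52 ± 0.07 on the log2 scale (SE, edgeR adjusted p = 2.9e-07). Cmpk2, a mitochondrial nucleotide kinase 54.0 kb away, changed by −1.62 ± 0.11 (edgeR adjusted p = 3.11e-06). Vxn lies inside 2610203C22Rik, a noncoding gene of the other strand, which had 14, 9 and 7 reads in Aif1-/- libraries and 534, 716 and 456 reads in WT libraries (log2 fold change −5.48 ± 0.25, edgeR adjusted p = 2.13e-07). Reads of Vxn and 2610203C22Rik may be shared. Adhfe1, a hydroxyacid-oxoacid transhydrogenase 20.5 kb from Vxn, changed by −2.39 ± 0.18 (edgeR adjusted p = 5.94e-06). H2-T22, a class Ib histocompatibility gene 94.4 kb from Gm9574, changed by −1.44 ± 0.09 (edgeR adjusted p = 1.92e-06).

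Some neighbours went against their switched gene. Nr1h3, the oxysterol receptor LXR alpha, 53.1 kb from Pacsin3, was higher in Aif1-/- BMMs, at 136, 91 and 77 reads in Aif1-/- libraries, against 16, 21 and 21 reads in WT libraries (log2 fold change 2.72 ± 0.23, edgeR adjusted p = 1.59e-05). Gm8810, a pseudogene 69.4 kb from Gm9574, was higher, with a log2 fold change of 4.02 ± 0.40, and Enpp4, a nucleotide hydrolase 82.8 kb from Clic5, with a log2 fold change of 0.86 ± 0.10. Abcg3, a gene of the ABC transporter family 75.0 kb from Zfp951, had 324, 220 and 228 reads in Aif1-/- libraries, against 18, 5 and 12 reads in WT libraries, in the direction of Zfp951 (log2 fold change 4.78 ± 0.31, edgeR adjusted p = 2.55e-06).

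Relatives that share the stem of a switched gene's symbol were read in the same way. Of 122 tested, 20 were higher and 26 lower in Aif1-/- BMMs, 37.7% against 18.6% of all tested genes, and the Gbp and Xlr families gave 11 of these 46. Beyond those families, Myo16 and Zc3h7b were lower, with log2 fold changes of −1.93 ± 0.08 and −1.73 ± 0.09, and Myo7a, the myosin of hair cells and retina, was higher, with a log2 fold change of 1.25 ± 0.07 (SE, edgeR adjusted p = 7.73e-08, 5.43e-07 and 8.93e-07). Relatives of Cers4, Clic5, Dclk1, Megf10 and Sik1 that were tested were not called in either direction.

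The other genes of the DENN family were expressed in both genotypes. Of 15 tested, 2 were higher and 4 lower in Aif1-/- BMMs, 40% called, against 18.6% of all tested genes. Leaving out Aif1-/- replicate 1, 2 or 3 gave 2, 3 or 3 calls, 13.3%, 20% or 20% of those tested. Of all tested genes, 11.5%, 11.7% or 11.9% were then called. Dennd3 had the largest difference, with 24, 11 and 15 reads in Aif1-/- libraries, against 94, 119 and 197 reads in WT libraries (log2 fold change −2.68 ± 0.31, edgeR adjusted p = 0.000139). Dennd5a and Dennd4c were slightly lower, by −0.38 ± 0.07 and −0.27 ± 0.06 on the log2 scale. In the subfamily of Dennd2a, Dennd2c was slightly higher, by 0.33 ± 0.07, and St5 (Dennd2b) was lower, by −0.55 ± 0.15 (edgeR adjusted p = 0.026). Dennd2d of that subfamily was not called, at 0.08 ± 0.14 (edgeR adjusted p = 0.775). Of 11 tested Rab GTPases that DENN proteins act on, 4 were called (36.4%). That count was 1, 1 or 2 without Aif1-/- replicate 1, 2 or 3. Rab39 (0.94 ± 0.15), Rab6b (0.63 ± 0.16) and Rab14 (0.29 ± 0.07) were higher. Rab9, the GTPase that DENND2A acts on, was lower at −0.38 ± 0.11 (SE, edgeR adjusted p = 0.0368). Dennd4c, Rab14 and Rab9 passed the threshold in none of the fits that left out an Aif1-/- library, and Rab6b and Dennd2c missed it in at least 1 of them.

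Few other germ cell genes were detected. Of 22 other genes of the Tudor and piRNA list, 15 stayed below 0.5 CPM throughout, and 7 of these 15 had no read in any library. Of the 7 tested, Piwil2, a PIWI protein of the piRNA pathway, was higher, with 184, 113 and 96 reads in Aif1-/- libraries, against 49, 61 and 80 reads in WT libraries (log2 fold change 1.38 ± 0.20, edgeR adjusted p = 0.000767). Tdrd7, a Tudor protein also used in the lens, was lower, by −0.42 ± 0.07 (edgeR adjusted p = 0.00168), and Tdrkh and Tdrd3 did not pass the test. Of 24 germ cell genes known to be silenced by promoter methylation, 14 had no read in any library and 22 stayed below 0.5 CPM, and the 1 tested, Brdt, was lower in Aif1-/- BMMs, at −0.91 ± 0.17 on the log2 scale (SE, edgeR adjusted p = 0.00401). Of the 8 germ cell markers, 7 were below 0.5 CPM in every library, with Dazl, Mael and Prm1 at 0 reads.

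Of 26 tested factors of DNA methylation and silencing, 3 were higher and 3 lower in Aif1-/- BMMs, 23.1% called, near the 18.6% of all tested genes. Dnmt3a, a de novo methyltransferase, changed by 0.46 ± 0.06, Tet3, which oxidises methylcytosine, by 0.39 ± 0.06, and Dnmt3l, the cofactor of de novo methylation in germ cells, by 1.11 ± 0.27 (SE, edgeR adjusted p = 0.00031, 0.00162 and 0.0148). Max, a partner of Myc and of a complex that represses germ cell genes, changed by −0.32 ± 0.07 (edgeR adjusted p = 0.0108). Max and Dnmt3l missed the threshold whichever Aif1-/- library was left out. Over the DENN, Rab, germ cell and silencing lists together, 19 of 60 tested genes were called, 9 higher and 10 lower (31.7%). Over all tested genes 18.6% were called. Leaving out Aif1-/- replicate 1, 2 or 3 gave 8, 9 or 10 calls in the lists, 12.9%, 15% or 16.1% of those tested, where 11.5%, 11.7% or 11.9% of all tested genes were called.

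Markers of several other cell types were also read. The 7 fibroblast markers summed to at most 1.18 CPM in any library, the 7 mast cell and basophil markers to at most 0.0565 CPM, and the 8 neutrophil markers to at most 1.16 CPM. Platelet markers summed to 85.5 to 88.8 CPM in Aif1-/- libraries and 40.6 to 42.4 CPM in WT libraries, most of it from Pf4. Of the 4 tested, 3 were higher in Aif1-/- BMMs (Pf4, Treml1 and Ppbp) and none lower, where 8.04% of all tested genes were higher. Itga2b was not called (log2 fold change −0.49 ± 0.52, edgeR adjusted p = 0.606), and Gp9 and Gp1bb stayed below 0.5 CPM in every library. Ppbp had 18, 13 and 25 reads in Aif1-/- libraries, against 3, 0 and 0 reads in WT libraries. Of the 7 dendritic cell markers, Bst2, which interferon also induces, was lower, with 236, 238 and 240.3 CPM in Aif1-/- libraries, against 359, 336 and 435 CPM in WT libraries, and no other marker of that list was called. In the lists for B cells, endothelium, erythroid cells, neurons and T cells, no gene was higher, and the lower ones were 1 each of the endothelial, neuronal (Tubb3) and T cell (Gata3) lists. Their part in the switched genes was not tested.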

How the data were processed

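RNA-seq libraries from 3 Aif1-/- and 3 WT BMM samples, each assigned by its label, were used. The authors depleted ribosomal RNA, sequenced single-end reads, trimmed them (Trim Galore 0.5), aligned them with TopHat2 2.0.13 on GRCm38, keeping no more than 1 location each, and counted genes of Ensembl release 84 with HTSeq 0.6.1p1 at default parameters, per the submitters' processing notes and the methods. Raw counts of 47729 genes, deposited by the authors, were the starting point. Rows of reads assigned to no gene (25.5% to 40.4% outside genes, 4.55% to 7.15% ambiguous) were left out of totals. The switched genes and all gene lists were chosen with earlier results of these data known.

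CPM values were counts scaled to the library gene total (17707986 to 29314253). Replicate libraries differed by more than sampling noise, and WT libraries more so. The chi-square per gene was 2.43 to 3.36 between Aif1-/- libraries and 10.6 to 45.9 between WT libraries. Calls came from edgeR 4.0.16 (R 4.3.3, limma 3.58.1), quasi-likelihood test on genotype, TMM and filterByExpr, tested on simulated data first. DESeq2 1.42.0, other size factors, filters, bounds and left-out libraries were alternatives. GENCODE M21 matched 47310 genes and every switched gene. Values per library are given for Rnf17, Dennd2a, Aif1, the 10 genes per direction with the highest CPM per kb of exon, genes within 10 Mb of Aif1 or 1 Mb of each other, and genes nearest the bounds, with Pax3 and a few further values added after they were seen. Up to 5 neighbours per direction, 8 relatives and 4 genes per list with the smallest adjusted p were named. Other family members, Xlr3a, Adhfe1, Brdt and the called members of clusters were named after their values were seen. A fold against 0 reads used 3 reads over the group, and ratios with 1 to 3 reads carry an exact 95% counting interval. P-values measure the spread between these libraries. Of the switched genes, 2 that are off in Aif1-/- BMMs are counted in all totals but not reported here.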

Additional observations from a re-analysis of the deposited data

How the results depend on the processing

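With a library left out the rule can only admit more genes, and the sets then held 18 to 21 genes on and 40 to 44 genes off in Aif1-/- BMMs. TMM-scaled totals kept all 57 genes and added Alox8, DESeq2 size factors lost Lipg and Pacsin3 and added Apbb1, and thinning to the smallest gene total left 17 on and 36 off, without Btbd11, Rgs7bp, Gm6325, Pacsin3 and Snhg11 and with Selenbp1 added. A bound of 5 CPM for the genotype that is on left 9 genes on and 20 off, and 2 CPM gave 61 off. A bound of 0.25 CPM for the genotype that is off left 11 on and 24 off, and 1 CPM gave 31 on and 67 off. Without genes that have a gene annotated on the other strand, 12 on and 24 off were left. The calls among all genes ran from 2040 to 4889, those among neighbours from 43 to 71, those among relatives from 38 to 59 and those among the gene lists from 8 to 23 when each library was left out in turn. Without Aif1-/- replicates 1, 2 and 3, the lists held 8, 9 and 10 calls, and within 500 kb there were 167 called neighbours. With the replicate number as a block, 2872 genes were called, with 51 neighbours, 44 relatives and 16 list genes, and since same-numbered libraries did not deviate together (correlations of 0.0601, −0.0753 and −0.0858) the numbers do not pair the samples. For the 33 named genes outside the switched genes, 337 alternative values kept direction and side of the threshold, 20 lost the call, 3 gained it and none turned round, in genes of the DENN, Rab, germ cell and silencing lists.

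Counting limits what can be said of the genotype that is off. A gene at 0 reads is below 0.102 to 0.169 CPM in a library, a limit for counting error and not proof of silence. The sources used here do not state whether the 3 libraries of a genotype were immortalized separately, so p-values measure the spread between these libraries alone. Counts of near-identical copies and of overlapping genes are uncertain.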
